A study of Homo sapiens with 6 samples.

Results

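The collagen genes are the rows of the count table whose symbol is COL, a number, A and a number, with antisense rows left out. This rule found 44 of 29436 gene symbols. It uses gene names alone, but it was set with earlier results of these data known. Collagens are secreted proteins wound from 3 chains each, and every gene codes for 1 chain. Type IV chains form the sheet-like network of basement membranes, on which endothelium sits, and type XV and XVIII collagens (multiplexins) link that network to the tissue around it. Fibrillar collagens (types I, III, V and others) form the ropes of connective tissue, type VI makes beaded filaments between them, FACIT collagens sit on fibril surfaces, and transmembrane collagens remain anchored in the plasma membrane.

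The series holds 6 RNA-seq libraries of hemogenic endothelial cells, the endothelium from which the first blood cells bud. The starting cells were H1, a long-established line of human embryonic stem cells, grown together with AGM-S3 stroma, a mouse line from the embryonic region where blood stem cells arise. The 3 lipoic acid libraries came from cultures given alpha lipoic acid, an antioxidant and enzyme cofactor, at 100 µg/ml, and the 3 untreated libraries came from cultures given none. Every library was made from 1000 cells sorted on day 8 as CD34+CD43-KDR+CD144+. All cells share 1 line, and no label says that replicates came from separate cultures, so the p-values weigh differences only against the spread of these 6 libraries, part of which could be technical.

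Libraries held 30041494 to 41351951 counts over 14668 to 15824 detected genes. In 4 of them (the 3 lipoic acid libraries and untreated replicate 1) even numbers made up 99.13% to 99.34% of the counts above 0. In the other two, untreated replicates 2 and 3, they made up 52.01% and 51.97%. Counts from those 4 libraries were therefore halved where independent counts are given below. The filter and the main fit used the deposited counts, and a fit on halved counts is among the alternatives at the end. Endothelial transcripts were abundant: KDR, itself used in the sort, averaged 4115 CPM without and 4813 CPM with lipoic acid, and PECAM1 2308 and 1821 CPM. The genes of the other antigens sorted for fell. CD34 went from 1451 to 813 CPM (1.78-fold, edgeR adjusted p = 1.13e-06). CDH5, the gene of CD144, went from 864 to 556 CPM (1.55-fold, edgeR adjusted p = 0.000344). Of 12 blood markers 5 were at 0 in every library. Among them were PTPRC and SPN, the gene of the CD43 antigen used to gate blood cells out. LAPTM5 averaged 290 CPM without and 244 CPM with lipoic acid, and LCP1 24.3 and 26.7 CPM. PF4 rose from 0.415 to 3.74 CPM and ITGA2B from 0.660 to 2.47 CPM. CPM are counts scaled to 1e6 per library, on adjusted library sizes, every ± is an SD over 3 libraries, folds come from the edgeR fit, and a gene is called (rose or fell) at an adjusted p under 0.05 over all genes tested.

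The 6 type IV genes lie as 3 head-to-head pairs, in which 2 chains of the same network start on opposite strands a short distance apart. The stretches before COL4A1 and COL4A2 and before COL4A5 and COL4A6 are shown. That of COL4A3 and COL4A4, a pair also compared here, is not shown. Its 250 bases held 2 GC boxes and 0 CCAAT boxes. The stretches shown were read from RefSeq GRCh38.p14 on the + strand, 5′ to 3′. Capitals mark CCAAT boxes (CCAAT or, on the other strand, ATTGG) and GC boxes (GGGCGG or CCGCCC). The first covers all 126 bases between the COL4A1 and COL4A2 starts, at chr13:110307158-110307283, and is 80.2% G or C. The second covers 250 of the 379 bases between the COL4A5 start and the nearer RefSeq start of COL4A6. It lies at chrX:108439588-108439837 and is 51.2% G or C. Another COL4A6 start is listed at chrX:108438422.
COL4A1-COL4A2: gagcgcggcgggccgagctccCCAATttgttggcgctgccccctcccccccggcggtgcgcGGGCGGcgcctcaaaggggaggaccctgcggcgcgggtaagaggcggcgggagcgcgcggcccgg
COL4A6-COL4A5: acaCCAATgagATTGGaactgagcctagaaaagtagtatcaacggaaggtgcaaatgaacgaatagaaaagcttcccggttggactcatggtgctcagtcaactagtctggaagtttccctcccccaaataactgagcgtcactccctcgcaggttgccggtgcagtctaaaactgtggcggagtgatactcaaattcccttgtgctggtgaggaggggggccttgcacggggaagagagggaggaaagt
The COL4A1 stretch holds 1 CCAAT box and 1 GC box, and the COL4A5 stretch holds 2 CCAAT boxes and no GC box. RefSeq promoter windows were matched for 32 of the 44 genes, as 44 windows. Within the 250 bases before the start, a CCAAT box stood in 12 of these windows (27.3%), against 32.0% of 34788 windows of all genes. A GC box stood in 24 (54.5%), against 42.6%, and TATAAA, searched on both strands, in 8 (18.2%), against 10.8%. These matches describe letters and show no bound factor.

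Collagen transcripts took 1.01% ± 0.115 of all counts in untreated libraries and 0.834% ± 0.0678 in lipoic acid libraries. Their summed level was 10922, 9045 and 10302 CPM in untreated replicates 1 to 3 and 8853, 7527 and 8563 CPM in lipoic acid replicates 1 to 3. On this scaled level each lipoic acid library lay below every untreated one, with a ratio of means of 0.824. As a plain share of counts the groups overlap, with 0.887% in lipoic acid replicate 1 and 0.881% in untreated replicate 2. The sum is mostly the basement membrane pair: COL4A1 alone made up 44.6% ± 2.76 of collagen counts without and 45.0% ± 0.866 with lipoic acid, and COL4A1 with COL4A2 62.9% ± 2.54 and 62.7% ± 1.64. COL4A1 was the 7th most abundant transcript of the untreated cells and the 12th of the treated ones by CPM.

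Of the 44 genes, 31 passed the filter on low counts and 13 did not. The quasi-likelihood test called 12 lower with lipoic acid, namely COL1A1, COL4A1, COL4A2, COL4A4, COL5A2, COL6A1, COL6A2, COL15A1, COL18A1, COL21A1, COL23A1 and COL26A1. It called 4 higher, COL4A6, COL6A6, COL9A1 and COL25A1, and left 15 uncalled. The lower calls were 38.7% of the collagens tested, against 23.3% of all 13780 genes, and the higher calls 12.9%, against 24.2%. In either direction 51.6% were called, near the 47.4% of all genes. The median log2 fold change was -0.24 over the collagens and -0.01 over all genes tested. The collagen median depends on lipoic acid replicate 2, without which it was -0.02, and on the scarce genes, since it was -0.07 over the 42 collagens left with no filter. COL6A6 and COL9A1 passed the filter through the lipoic acid libraries alone, and COL26A1 through the untreated ones alone, so these genes had to differ. Among the 18 collagens of at least 5 CPM over all 6 libraries, 9 were lower and 2 higher (50.0% and 11.1%), against 25.7% and 25.0% of the 9789 genes at that level. The groups did not overlap for 16 of the 31 (51.6%; 11 lower and 5 higher), against 59.1% of all genes (28.8% lower and 30.4% higher). Without both libraries numbered 2, discussed with the fibrillar chains, 7 of 33 collagens were higher and 15 lower, and all 16 calls remained. COL24A1 and COL6A5, newly among those 7, passed that filter through the lipoic acid libraries alone. That fit called 3545 of 14221 genes higher and 3420 lower.

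**Figure D1:**
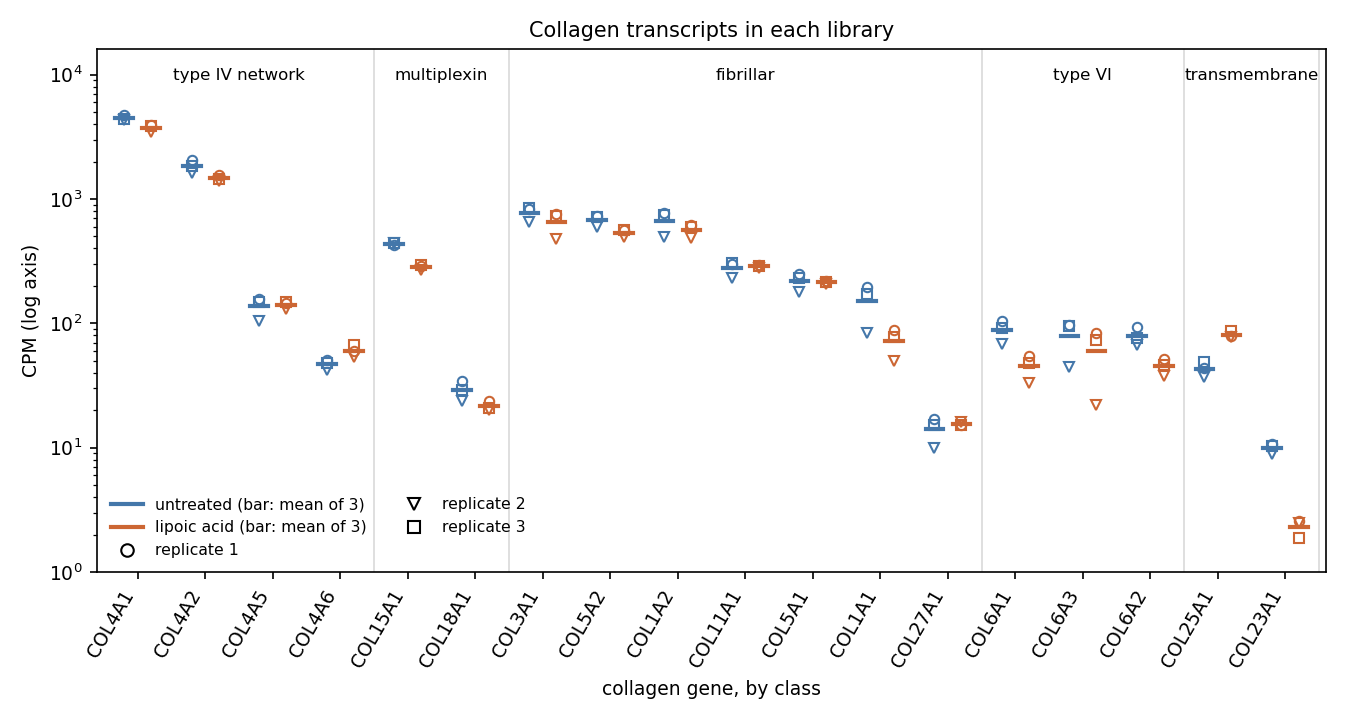
CPM on a log axis for the 18 collagen genes whose higher group mean reached 5 CPM, by class; each symbol is 1 library, with its shape giving the replicate, and each bar the mean of 3 (blue untreated, orange lipoic acid). COL4A1 stands above all others in both groups, COL15A1 and COL23A1 separate cleanly downward, COL25A1 separates upward, and replicate 2 is the low library of many fibrillar and type VI chains.

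**Figure D2:**
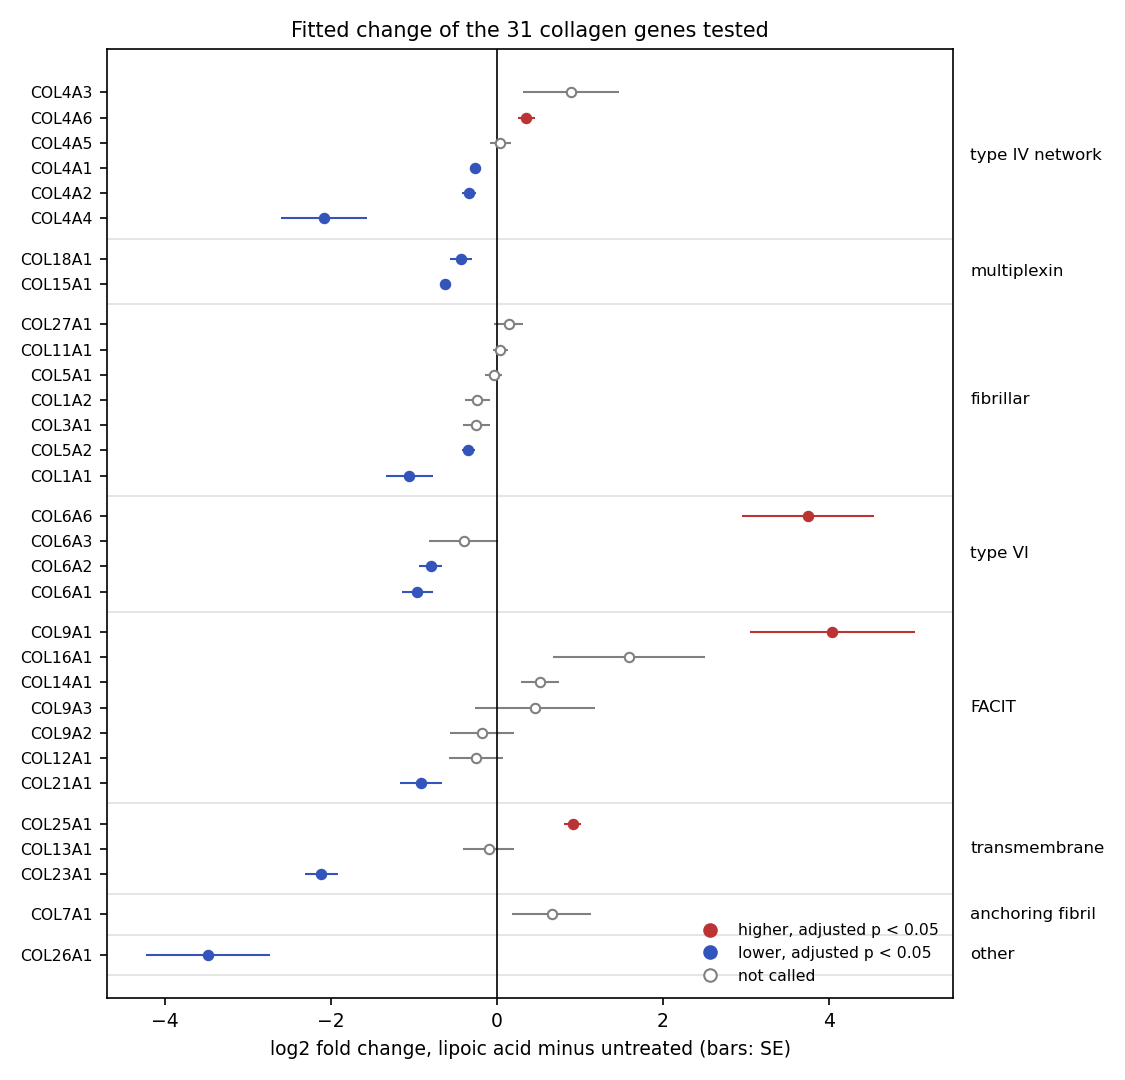
Fitted log2 fold change, lipoic acid minus untreated, with its SE, for the 31 collagen genes tested, by class (red higher, blue lower, open grey not called). Multiplexins and 3 of the 6 type IV chains lie below 0, the transmembrane chains COL23A1 and COL25A1 lie on opposite sides, and the wide bars belong to genes near the detection floor.

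In the basement membrane network the 2 abundant chains fell by less than 1.3-fold, and in each of the scarcer pairs 1 partner was called and the other was not. COL4A1 (chr13:110148963-110307233, minus strand) and COL4A2 (chr13:110305812-110513209, plus strand) code for the chains of the network found under nearly all endothelium. In these GENCODE positions COL4A2 begins inside COL4A1, whereas the RefSeq starts used for the promoters have 126 bases between them. COL4A1 measured 4726, 4323 and 4410 CPM in untreated replicates 1 to 3 and 3927, 3463 and 3830 CPM in lipoic acid replicates 1 to 3. All treated libraries were below all untreated ones, and the fit gave 1.20-fold lower (log2 -0.26, SE 0.057, adjusted p = 0.00381). COL4A2 measured 2057, 1617 and 1850 CPM, then 1555, 1394 and 1437 CPM, again with no overlap and 1.26-fold lower (log2 -0.33, SE 0.081, adjusted p = 0.00719). Per kilobase of transcript, COL4A1 stood at 2.41 ± 0.193 times COL4A2 without and 2.51 ± 0.0932 times with lipoic acid. The 2 values overlap within their SDs (exact two-sided permutation p = 0.5, adjusted 0.5 over 8 chain ratios). With 3 against 3 libraries no ratio can reach a p below 0.1, so these tests show neither a change nor its absence.

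The X-linked pair COL4A5 (chrX:108439844-108697545) and COL4A6 (chrX:108155607-108439497) contributes to another network, found in selected basement membranes such as those of smooth muscle and epithelia. COL4A6 measured 50.7, 42.1 and 48.0 CPM untreated and 59.9, 53.5 and 66.6 CPM treated. It rose 1.28-fold with no overlap (log2 0.36, SE 0.098, adjusted p = 0.013). That call is lost without lipoic acid replicate 3 (adjusted p = 0.0614), within a range of 0.00244 to 0.0614 in alternatives other than the even libraries only. With those, where untreated replicate 1 is the sole untreated library, it read log2 0.25 and also lost the call. COL4A5 measured 156.7, 105.4 and 149.5 CPM untreated and 146.0, 129.8 and 147.6 CPM treated. Its groups overlap and it was not called (log2 0.04, SE 0.128, adjusted p = 0.813). The COL4A5 to COL4A6 ratio per kilobase was 3.02 ± 0.361 and 2.46 ± 0.129, with no overlap but at the smallest p this design allows (exact permutation p = 0.1, adjusted 0.16).

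COL4A3 (chr2:227164565-227314792) and COL4A4 (chr2:227002711-227164453), chains of the kidney and lung basement membrane network, were scarce. COL4A4 measured 2.09, 3.23 and 1.96 CPM untreated and 1.05, 0.253 and 0.387 CPM treated, with no overlap. It fell 4.25-fold (log2 -2.09, SE 0.518, adjusted p = 0.00801). The fit without lipoic acid replicate 1 gave log2 -2.89. With the even libraries only, where untreated replicate 1 is the sole untreated library, it read log2 -1.87 and lost the call. The other alternatives kept the call (smallest adjusted p = 0.000527). COL4A3 averaged 0.612 ± 0.398 and 1.14 ± 0.343 CPM and was not called (log2 0.89, SE 0.579, adjusted p = 0.229). The COL4A3 to COL4A4 ratio per kilobase was 0.362 ± 0.27 untreated and 3.94 ± 3.25 treated, at the smallest p this design allows (exact permutation p = 0.1, adjusted 0.16).

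Both multiplexins fell, COL15A1 with little spread between libraries. COL15A1 (chr9:98943179-99070792), which bridges basement membrane to underlying fibrils in vessels, measured 428, 441 and 444 CPM untreated and 289, 271 and 294 CPM treated. The groups are far apart for their spread, with CVs of 1.94% and 4.34%, and the change was 1.54-fold lower (log2 -0.62, SE 0.054, adjusted p = 1.93e-05). COL18A1 (chr21:45405137-45513720), whose cleaved end is the angiogenesis inhibitor endostatin, measured 34.3, 23.7 and 29.1 CPM untreated and 23.7, 20.1 and 20.9 CPM treated. It fell 1.35-fold (log2 -0.43, SE 0.132, adjusted p = 0.0221), the treated values reaching up to the lowest untreated one. That call is lost without untreated replicate 1 (adjusted p = 0.0908), untreated replicate 3 (0.0613), lipoic acid replicate 2 (0.0882) or lipoic acid replicate 3 (0.0835), and falls to log2 -0.11 with the trend in GC content and length removed (adjusted p = 0.353). Over 20 alternatives the p ranged from 0.00104 to 0.353. A share of 0.164 of its exonic length also overlaps SLC19A1 on the opposite strand, and the strand setting of the counting is not given in the sources used here. The summed multiplexin level was 467 ± 5.46 CPM untreated and 306 ± 13.4 CPM treated.

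Of 11 fibrillar genes 7 were tested, 2 fell (COL1A1 and COL5A2), none rose and 5 were not called. The 28.6% called lie below the 47.4% of all genes, and the same share as lower calls lies near their 23.3%. Their summed level was 2789 ± 470 CPM untreated and 2349 ± 300 CPM treated. The fibrillar chains are major products of fibroblasts and other mesenchymal cells, and here COL3A1, COL5A2 and COL1A2 exceeded COL1A1 severalfold in level per kilobase. Untreated means were 139.9 CPM per kb for COL3A1, 124 for COL1A2, 96.3 for COL5A2 and 22.3 for COL1A1, beside 678 for COL4A1.

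COL1A1 (chr17:50183289-50201632), the major chain of type I collagen, measured 196.6, 83.0 and 171 CPM untreated and 88.8, 49.9 and 78.0 CPM treated. Replicate 2 was the lowest of both groups, and untreated replicate 2 fell inside the treated range. The fit gave 2.08-fold lower (log2 -1.05, SE 0.285, adjusted p = 0.0121). Without lipoic acid replicate 2 it was log2 -0.84 and no longer called (adjusted p = 0.0577), while without both libraries numbered 2 it had the smallest p of its 20 alternatives, which spanned 2.16e-06 to 0.0577. COL1A2 (chr7:94394561-94431232), its partner in the same helix, measured 770, 496 and 742 CPM untreated and 621, 483 and 601 CPM treated. It was not called (log2 -0.24, SE 0.150, adjusted p = 0.219), but was called lower without untreated replicate 2 (adjusted p = 0.00207, range 0.000514 to 0.585 over 20 alternatives). The COL1A2 to COL1A1 ratio per kilobase was 4.87, 7.42 and 5.39 untreated and 8.70, 12.0 and 9.57 treated. The groups do not overlap, at the smallest p this design allows (exact permutation p = 0.1, adjusted 0.16).

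COL3A1 (chr2:188974320-189012746), the fibril collagen of vessel walls, measured 836, 651 and 839 CPM untreated and 756, 476 and 730 CPM treated, and was not called (log2 -0.25, SE 0.157, adjusted p = 0.222). With a term for replicate number it was called lower (adjusted p = 0.0127), within a range of 0.00667 to 0.729 over 20 alternatives. COL5A2 (chr2:189031896-189225312), whose chain joins the type V core of fibrils, measured 725, 598 and 723 CPM untreated and 559, 493 and 560 CPM treated. It fell 1.27-fold with no overlap (log2 -0.34, SE 0.082, adjusted p = 0.00648). Its partner COL5A1 averaged 219 and 213 CPM and was not called (log2 -0.04, adjusted p = 0.773), though without untreated replicate 2 it read log2 -0.17 and was called lower (adjusted p = 0.0264, range 0.0203 to 0.993 over 20 alternatives). The COL5A2 to COL5A1 ratio per kilobase was 3.75 ± 0.261 untreated and 3.01 ± 0.126 treated (exact permutation p = 0.1, adjusted 0.16). COL11A1, a regulator of thin fibrils best known from cartilage, averaged 279 and 287 CPM (adjusted p = 0.728), and COL27A1, another cartilage fibril chain, 14.0 and 15.5 CPM (adjusted p = 0.532).

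The library numbered 2 was the lowest of both groups for 19 of the 31 collagens tested (61.3%), against 2325 of 13780 genes (16.9%). Relative to the mean of replicates 1 and 3, replicate 2 stood at 0.451 untreated and 0.598 treated for COL1A1, at 0.459 and 0.28 for COL6A3, and at 0.777 and 0.641 for COL3A1. The same ratio was 0.946 and 0.893 for COL4A1 and 1.01 and 0.928 for COL15A1. In their classes it was 0.828 and 0.932 for COL4A2, 0.688 and 0.884 for COL4A5, and 0.749 and 0.9 for COL18A1. Library 2 was lowest in both groups for these chains except COL15A1, and not for the scarce COL4A3 and COL4A4. The pattern covered 7 of 9 fibril partner genes, 6 of 8 collagen receptors, 7 of 12 maturation genes and 9 of 23 biosynthesis genes. It covered 6 of 14 mesenchymal markers, 3 of 16 endothelial markers and 0 of 10 endoderm and hepatic markers. Its cause, and its part in the differences between groups, was not tested. With both libraries numbered 2 left out, COL1A2, COL3A1 and COL6A3 were also called lower and COL16A1, COL24A1 and COL6A5 higher. COL24A1 and COL6A5 were too scarce in the untreated libraries to pass the filter there, so both had to be higher.

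**Figure D3:**
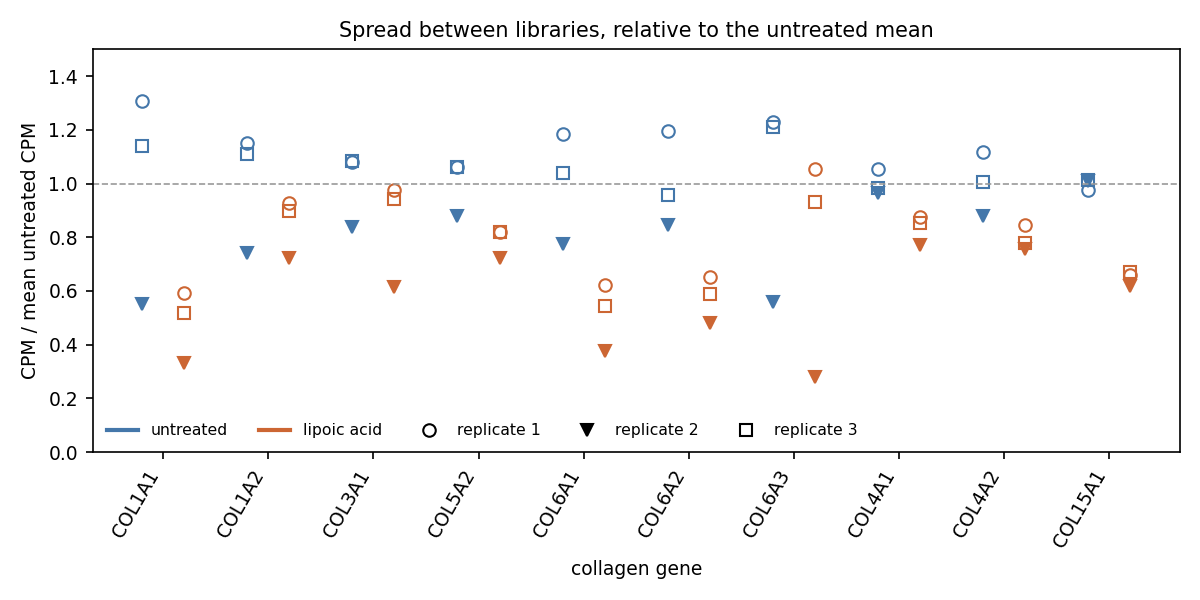
CPM of each library divided by the untreated mean of the same gene, for 10 collagens; filled triangles are replicate 2 of each group (blue untreated, orange lipoic acid) and the dashed line is the untreated mean. Replicate 2 lies well below its group for COL1A1 and COL6A3 and close to it for COL4A1 and COL15A1.

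Among type VI genes, COL6A1 (chr21:45981737-46005050) and COL6A2 (chr21:46098097-46132849), neighbours that code for the 2 short chains of the beaded filament, fell together. COL6A1 measured 104, 68.2 and 91.6 CPM untreated and 54.8, 33.0 and 47.8 CPM treated. It fell 1.94-fold with no overlap (log2 -0.96, SE 0.185, adjusted p = 0.00209). COL6A2 measured 94.3, 66.8 and 75.6 CPM untreated and 51.6, 38.0 and 46.4 CPM treated, 1.74-fold lower with no overlap (log2 -0.80, SE 0.137, adjusted p = 0.00108). COL6A3 (chr2:237324003-237414375), the long chain that completes the filament, measured 97.3, 44.3 and 95.7 CPM untreated and 83.4, 22.0 and 73.7 CPM treated. The spread within its groups (CVs of 38.1% and 55.3%) exceeds the gap between them, and it was not called (log2 -0.40, SE 0.415, adjusted p = 0.451). A fit with a term for replicate number called it lower (adjusted p = 0.0194), within a range of 0.00653 to 0.9997 over 20 alternatives. COL6A6 (chr3:130560334-130678155), an alternative long chain, rose from 0.123, 0 and 0.166 CPM to 2.09, 0.633 and 1.31 CPM. The fitted fold was 13.5 (log2 3.75, SE 0.795, adjusted p = 0.0035), and without untreated replicate 3 the log2 value was 4.35.

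The transmembrane collagens COL23A1 and COL25A1 moved in opposite directions and had, after COL15A1, the smallest p-values of the 31 collagens tested. COL23A1 (chr5:178237618-178590555), a shed membrane collagen that binds an integrin, measured 10.8, 8.85 and 10.4 CPM untreated and 2.59, 2.47 and 1.89 CPM treated. It fell 4.32-fold (log2 -2.11, SE 0.198, adjusted p = 3.14e-05). COL25A1 (chr4:108808725-109302752), known from neurons and from the innervation of muscle, measured 43.4, 36.7 and 48.7 CPM untreated and 79.3, 77.0 and 86.0 CPM treated. It rose 1.88-fold with no overlap (log2 0.91, SE 0.10, adjusted p = 7.81e-05). COL13A1, a collagen of the neuromuscular junction, averaged 2.32 and 2.16 CPM and was not called (adjusted p = 0.808).

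The remaining classes were scarce. COL21A1, a FACIT collagen of vessel walls, measured 4.49, 3.56 and 5.92 CPM untreated and 2.59, 2.53 and 2.27 CPM treated, a fall of 1.89-fold (log2 -0.92, SE 0.251, adjusted p = 0.0128). That call is lost without untreated replicate 3 (adjusted p = 0.0693) or lipoic acid replicate 3 (0.0545), within a range of 0.000923 to 0.0693 over 20 alternatives. COL14A1, another FACIT collagen, measured 3.75, 2.56 and 4.12 CPM untreated and 4.98, 5.13 and 4.88 CPM treated. Those groups do not overlap, yet it was not called (log2 0.52, adjusted p = 0.0837). COL26A1, a small extracellular collagen, went from 0.677, 1.23 and 1.10 CPM to 0.149, 0 and 0.0967 CPM, 11.2-fold lower by the fit (log2 -3.48, SE 0.745, adjusted p = 0.00369). It read log2 -4.14 without lipoic acid replicate 1. With the even libraries only, where untreated replicate 1 is the sole untreated library, it read log2 -2.93 and was not called. The other alternatives that tested it kept the call (smallest adjusted p = 0.000236). COL7A1, the anchoring fibril of skin, measured 4.18, 0.964 and 3.36 CPM untreated and 6.18, 2.53 and 4.74 CPM treated and was not called (log2 0.66, adjusted p = 0.274).

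COL9A1, a FACIT collagen of cartilage and eye, had 2 independent counts over the untreated group and 23 over the lipoic acid group, a depth-scaled ratio of 15.5 with a 95% counting interval of 3.84 to 136 (edgeR adjusted p = 0.00771). Its fitted log2 value was 4.04, and 6.87 without untreated replicate 3. Among the 15 uncalled genes, COL9A2, COL9A3, COL12A1 and COL16A1, are FACIT chains with mean levels of 0.224 to 2.67 CPM. The floor, taken as 3 independent counts summed over a group's libraries, was 0.0393 CPM untreated and 0.053 CPM treated. The lipoic acid level of COL2A1 (0 and 11 independent counts) was 4.95 times the untreated floor. That of COL6A5 (0 and 12) was 5.40 times this floor, and that of COL17A1 (0 and 9) 4.05 times. For COL5A3, with 7 and 0, the untreated level was 1.73 times the lipoic acid floor. These folds allow no error in the observed count, so they are not lower limits. COL24A1 went from 3 to 32 independent counts, a ratio of 14.4 with an interval of 4.51 to 73.5. Lipoic acid replicate 2 had 0 counts of COL24A1, COL6A5 and COL17A1, as untreated libraries also did, so their groups overlap. COL20A1 had 3 and 4 (ratio 1.80, interval 0.305 to 12.3), COL8A1 10 and 12, and COL28A1 8 and 8. COL8A2, COL11A2 and COL19A1 stayed at or under the floor in both groups, and COL10A1 and COL22A1 had 0 counts in every library. None of these 13 genes was tested in the fit of all 6 libraries with the filter, and the intervals cover counting error only. With no filter, COL2A1 and COL6A5 were called higher.

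Collagen chains are modified in the endoplasmic reticulum by prolyl and lysyl hydroxylases and by glycosyltransferases, are folded with chaperones, and leave the cell by a dedicated export route. Of 24 genes of this route 23 were tested, of which 8 rose, 8 fell and 7 were not called, with a median log2 fold change of -0.09. These are 34.8% in each direction, against 24.2% of all genes higher and 23.3% lower. The hydroxylases split. P3H2, the prolyl 3-hydroxylase that acts on type IV collagen, rose from 150 ± 3.30 to 247.5 ± 1.67 CPM (1.65-fold, adjusted p = 6.01e-06), and P3H1 fell from 405 to 291 CPM (1.40-fold, adjusted p = 0.000747). PLOD2, which hydroxylates lysines of collagen ends, rose from 203 ± 11.6 to 292 ± 15.02 CPM (1.44-fold, adjusted p = 0.000144), whereas PLOD1, which acts on the helix, fell from 1232 ± 128 to 984.5 ± 65.5 CPM (1.25-fold, adjusted p = 0.00639). P4HB, the shared subunit of the prolyl 4-hydroxylases, rose from 532 ± 21.4 to 699.8 ± 35.8 CPM (1.32-fold, adjusted p = 0.000369), and P4HA1, a catalytic subunit, fell from 139.8 to 103 CPM (1.36-fold, adjusted p = 0.000294).

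SERPINH1 (HSP47), the collagen-specific chaperone, fell from 529.5 ± 20.8 to 395 ± 18.5 CPM (1.34-fold, adjusted p = 0.000258). FKBP9 and FKBP10, prolyl isomerases of the reticulum, fell 2.11-fold (adjusted p = 3.57e-05) and 1.30-fold (adjusted p = 0.00328), while PPIB, the cyclophilin of that compartment, rose 1.30-fold. A share of 0.272 of the PPIB exonic length overlaps SNX22 on the opposite strand, and the strand setting of the counting is not given. COLGALT1, the main collagen galactosyltransferase, fell from 687 ± 16.2 to 496 ± 20.5 CPM (adjusted p = 7.86e-05), and P3H4, a partner of the hydroxylases, fell 1.66-fold. MIA3 (TANGO1), the export receptor for bulky procollagen, rose from 51.9 to 76.4 CPM (adjusted p = 0.00578). TMEM38B, an ion channel of the reticulum, rose 1.22-fold, a call lost in 7 of 20 alternatives. P4HA3 and COLGALT2 rose from means of 0.217 and 0.625 CPM to 1.83 and 1.64 CPM, the COLGALT2 call being lost without untreated replicate 3 or lipoic acid replicate 1. P4HA3 read log2 3.82 without untreated replicate 3, against 3.06 with it. P4HA2, PLOD3, P3H3, CRTAP, FKBP7, FKBP14 and CREB3L1 were not called, although PLOD3 was called lower without untreated replicate 2 (adjusted p = 0.0124, range 0.00819 to 0.527 over 20 alternatives).

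**Figure D4:**
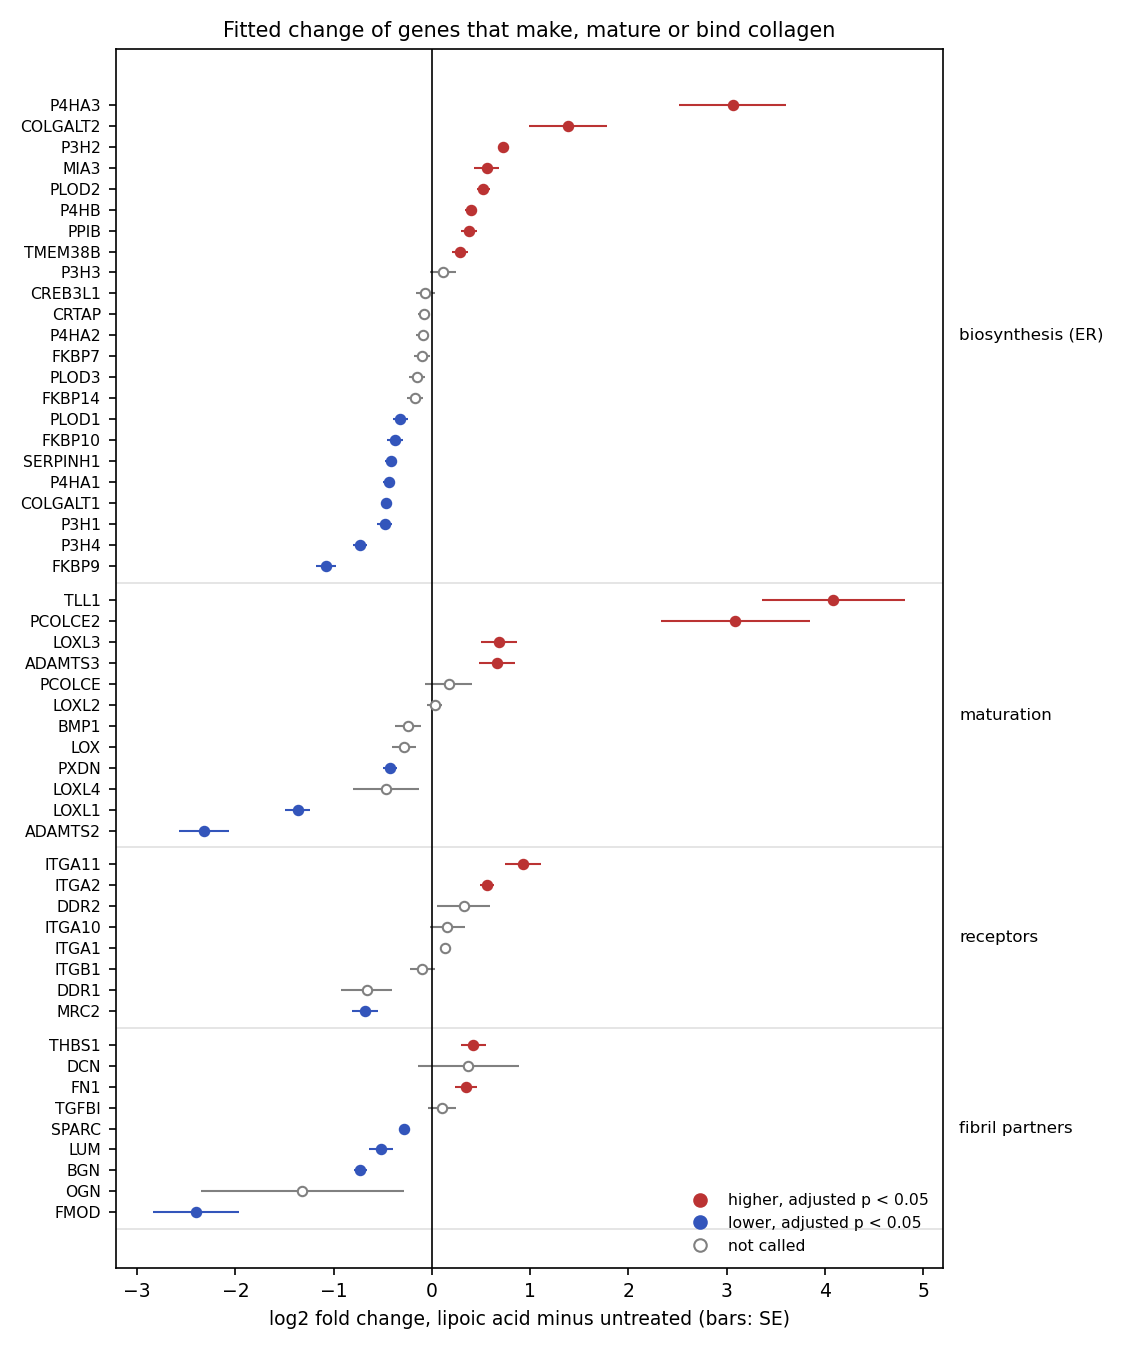
Fitted log2 fold change, lipoic acid minus untreated, with its SE, for tested genes of collagen biosynthesis in the endoplasmic reticulum, extracellular maturation, collagen receptors and fibril partners (red higher, blue lower, open grey not called). Biosynthesis genes lie on both sides of 0, with P3H2 and PLOD2 above it and SERPINH1, COLGALT1 and FKBP9 below.

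Outside the cell, procollagen is trimmed by proteinases and cross-linked. Of 14 such genes 12 were tested, with 4 higher, 3 lower and 5 not called (33.3% and 25.0%, against 24.2% and 23.3% of all genes). ADAMTS2, which removes the N-terminal propeptide of fibrillar procollagens, fell from 5.74 ± 0.911 to 1.14 ± 0.175 CPM (4.99-fold, adjusted p = 7.64e-05). LOXL1, a cross-linking lysyl oxidase, fell from 19.8 to 7.65 CPM (2.58-fold, adjusted p = 3.39e-05). PXDN (peroxidasin), which cross-links type IV collagen, fell from 1169 ± 114 to 871 ± 18.7 CPM (1.34-fold, adjusted p = 0.000727). TLL1, a C-propeptide proteinase, and PCOLCE2, an enhancer of that cleavage, rose from 0.0837 and 0.172 CPM to 1.51 and 1.49 CPM. TLL1 passed the filter through the lipoic acid libraries alone, so it had to be higher. Their log2 values moved to 5.37 for TLL1 without untreated replicate 1 and to 3.94 for PCOLCE2 without untreated replicate 3, from 4.09 and 3.09. ADAMTS3, another N-propeptidase, rose from 6.29 to 9.98 CPM (1.58-fold, adjusted p = 0.0128), a call lost without lipoic acid replicate 2 (adjusted p = 0.0501, range 0.00456 to 0.0532 over 20 alternatives). Without untreated replicate 2, lower calls in this list numbered 6.

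Of 11 collagen receptors 8 were tested, with 2 higher, 1 lower and 5 not called, so 37.5% were called, below the 47.4% of all genes. ITGA2, a subunit of an integrin for collagen, rose from 108 to 159.5 CPM (1.48-fold, adjusted p = 0.000172), and ITGA11, its relative on mesenchymal cells, from 4.55 to 8.64 CPM (1.90-fold, adjusted p = 0.00266). MRC2, which takes up collagen for breakdown, fell from 25.6 to 15.95 CPM (1.60-fold, adjusted p = 0.00181). Without untreated replicate 1, lower calls in this list numbered 3.

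Of 11 proteins that bind or shape fibrils 9 were tested, with 2 higher, 4 lower and 3 not called (22.2% and 44.4%, against 24.2% and 23.3% of all genes). BGN and LUM, proteoglycans of fibril surfaces, fell from 253 to 153 CPM (1.66-fold, adjusted p = 2.08e-05) and from 212 to 148 CPM (1.43-fold, adjusted p = 0.00651). FMOD, of the same family, fell from 3.98 to 0.749 CPM (5.28-fold, adjusted p = 0.00153). SPARC, a collagen-binding protein more abundant in CPM than COL4A1 here, fell from 5238 ± 191 to 4291 ± 83.2 CPM (1.22-fold, adjusted p = 0.000469). FN1 (fibronectin), on which collagen is laid down, rose from 2479 ± 474 to 3154 ± 79.4 CPM (1.27-fold, adjusted p = 0.0274), and THBS1 from 17.5 to 23.5 CPM (1.34-fold, adjusted p = 0.0177). Leaving out lipoic acid replicate 1, 2 or 3 left 1, 1 and 0 of these 2 rises, the last dropping both FN1 and THBS1.

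Markers of other cells moved alongside. Of 16 mesenchymal markers 14 were tested, with 7 lower (50.0%), 1 higher (7.14%) and 6 not called, and their summed level was 777 ± 39.0 CPM untreated and 549 ± 48.5 CPM treated. THY1 fell 1.51-fold and ACTA2 1.33-fold, PDGFRA averaged 38.9 and 34.7 CPM (adjusted p = 0.0711), and TWIST2 was at 0 in every library. A share of 0.301 of the ACTA2 exonic length overlaps ACTA2-AS1 and FAS on the opposite strand. Of 16 endothelial markers 10 were lower, 2 higher and 4 not called, with sums of 18396 ± 42.2 and 15285 ± 376 CPM. FLT1, PECAM1 and ESAM fell and KDR rose, a call that is lost with the GC and length trend removed. Of 12 endoderm and hepatic markers 10 were tested and 9 rose, with sums of 34.0 ± 6.78 and 178 ± 43.0 CPM, led by AFP (5.85 to 60.1 CPM) and TTR (8.27 to 50.5 CPM). Of 8 epithelial markers 6 were tested and 5 rose. FOXA2 among the endoderm rises and CDH1 among the epithelial ones passed the filter through the lipoic acid libraries alone, so both had to be higher (named after their values were seen). All these counts stand beside 24.2% of all genes higher and 23.3% lower. In sorted bulk cells, fewer cells of a type and less RNA per cell cannot be told apart, and the part of these markers in the collagen differences was not tested.

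The collagens tested differ from other genes in composition, with a median GC content of 53.5% and exonic length of 9091 bases, against 48.5% and 5086 bases over all genes tested. With the trend of fold change in GC and length removed, 4 collagens were higher and 12 lower, 15 of the 16 calls remained, COL18A1 was lost and COL1A2 was added. These counts, out of 31 collagens, stand beside 2598 higher and 3696 lower of 13780 genes under the same correction. The median log2 fold change was then -0.11 over the collagens and -0.08 over all genes, so most of the gap between the medians was gone. The split over all genes moved with it, from 50.9% to 41.3% of calls higher.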

How the data were processed

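RNA was measured as amplified polyA cDNA in 3 untreated and 3 lipoic acid libraries of 1000 sorted cells. The deposited values are raw counts per gene symbol; HISAT2, featureCounts, DESeq2 and hg38 are named per the submitters' processing notes. Versions, gene annotation, strand setting and the treatment of mouse reads are not given in the sources used here. No column was left unused.

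Whole-table counts were filtered with filterByExpr by group, scaled by TMM and tested with edgeR's quasi-likelihood test (edgeR 4.0.16, limma 3.58.1, DESeq2 1.42.0, R 4.3.3), with group as the only term and Benjamini-Hochberg adjustment over 13780 genes. The common biological coefficient of variation was 0.137. On simulated counts for 13574 genes, the step recovered 67.2% of 1.5-fold, 76.1% of 2-fold and 98.5% of 4-fold changes, with 14 false among 175 calls. Only 67, 67 and 66 genes were changed there, all drawn from the less scarce ones, and genes varied independently. In the data 47.4% of genes were called and many collagens were low together in library 2, so these rates do not carry over. Chain ratios use CPM per kilobase of the longest protein-coding GENCODE v29 transcript and exact two-sided permutation tests. Gene positions are from GENCODE v29 (GRCh38), in which 99.36% of symbols matched. Counts of a few were given after halving those of the even libraries, with exact intervals at 95% for the ratio; PCR without molecular barcodes means that these cover counting error only.

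The members and the lists were chosen with earlier results of these data known. All collagen rows may be named, with values per library from 5 CPM in the higher group (the scarcer COL4A4, COL6A6, COL7A1, COL14A1, COL21A1 and COL26A1 were given by library after their values were seen). Of biosynthesis every tested gene, of the other collagen lists up to 6 called genes of lowest p, and of marker lists the 4 of highest level and those at 0 may be named. CD34 and CDH5, whose products were sorted for, were named after their values were seen. Markers of cartilage (6 of 9 tested, 1 higher and 3 lower) and of blood (4 of 12 tested, 2 higher and 1 lower) were also counted. Alternatives were other scalings, filters, tools, a replicate block, single libraries left out, even counts halved, even libraries only, GC and length correction, a 2-fold minimum, and mitochondrial genes removed. The even libraries only are the 3 lipoic acid libraries and untreated replicate 1. The fit without both libraries numbered 2 was chosen after seeing the data.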

Additional observations from a re-analysis of the deposited data

How the results depend on the processing

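Under other scalings (relative log expression, upper quartile), without mitochondrial genes, with voom, with DESeq2 and with no filter, all 16 collagen calls remained, and 15 did with even counts halved (29 collagens tested). The collagen counts ranged from 3 to 5 higher and 10 to 14 lower as single libraries were left out. Over all genes the same fits gave 2669 to 3569 higher and 2386 to 3448 lower. Higher calls were 2 with a minimum of 1 CPM in every library of a group (25 collagens tested), 2 at 2-fold or more, and 7 without both libraries numbered 2; lower calls were 4 at 2-fold or more. With the 4 even libraries only, 3 of 35 collagens were higher and 12 lower, beside 2880 and 2621 of 14740 genes, and 13 of the 16 calls remained. At 2-fold or more, all genes gave 1092 higher and 817 lower, biosynthesis 2 and 1, maturation 2 and 2, receptors 0 and 0, and fibril partners 0 and 1. Lower maturation calls were 6 without both libraries numbered 2 and 3 to 6 with a library left out. Lower receptor calls were 2 with voom, 2 with even counts halved and 1 to 3 with a library left out. Higher fibril partner calls were 0 to 2 with a library left out. The collagen median log2 fold change was -0.29 to -0.02 with a library left out, and -0.01 with DESeq2 over 42 collagens. The cause of these moves was not tested.

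Samples with the same number correlated by 0.0598, 0.0602 and 0.0783 in their deviations from the group means, so the numbers were not taken as pairs, though each library correlated best with its own number. With the replicate block, 3354 genes were higher and 3203 lower, 5 collagens were higher (adding COL7A1) and 15 lower (adding COL1A2, COL3A1 and COL6A3, the last at log2 -0.51, adjusted p = 0.0194, range 0.00653 to 0.9997 over 20 alternatives), and 5 maturation genes were lower; with the block and GC correction together, collagens were 5 higher and 14 lower and 40.7% of all calls were higher.

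Of the named genes, only uncalled ones changed sign. COL11A1 (log2 0.04) read -0.0305 with voom, -0.0667 with even libraries only, -0.0853 with GC correction, -0.0819 with the block added and -0.0546 without both libraries numbered 2. COL4A5 (log2 0.04) read -0.0245 with voom, -0.149 with even libraries only, -0.0942 with GC correction, -0.0867 with the block added and -0.0593 without both libraries numbered 2. COL27A1 read -0.136 with even libraries only and -0.0798 without both libraries numbered 2, FKBP7 0.0233 and 0.0199, and P3H3 -0.119 with even libraries only. COL9A2 read 0.115 with GC correction and 0.0818 with the block added. With a single library left out, log2 values ran from -0.0737 to 0.114 for COL11A1, -0.438 to 0.0198 for COL12A1, -0.297 to 0.0835 for COL13A1, -0.0544 to 0.318 for COL27A1, -0.117 to 0.158 for COL4A5, -0.168 to 0.0705 for COL5A1, -0.708 to 0.000155 for COL6A3, -0.391 to 0.0811 for COL9A2, -0.106 to 0.877 for COL9A3, -0.126 to 0.0326 for CREB3L1 and -0.012 to 0.256 for P3H3.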
